A study of Mus musculus with 12 samples.

Results

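Fibroblast growth factor (FGF) signalling was examined through 10 genes, 6 ligands (Fgf1, Fgf2, Fgf4, Fgf5, Fgf7 and Fgf10) and the 4 receptor tyrosine kinases (Fgfr1, Fgfr2, Fgfr3 and Fgfr4), out of 19938 genes measured. The genes were chosen by name, from a list drawn up once the group differences in log2 signal on these arrays were known, and each was read by the 1 probe set mapped to it alone, so that choosing the brightest probe set by its mean over 12 arrays decided nothing for them. All 10 were measured and none was filtered out for a low value. The tests below describe the members and give no independent support. RNA was taken from 4 groups of mouse cells, 3 samples in each, and hybridised 1 sample to an array. WT_EC were wild-type C57Bl/6 lung endothelial cells, and null_EC were lung endothelial cells of CD47 null C57Bl/6 mice, which lack the thrombospondin-1 receptor CD47. Both were grown in the endothelial medium EGM2. The null_EB group was made of embryoid bodies, cell aggregates that formed in 24 to 36 h after CD47 null endothelial cells kept in passage for 6 months were seeded in basal medium free of serum. ESC was V6.5, an established embryonic stem cell line without a stated CD47 genotype, grown with 15% serum and leukemia inhibitory factor at 1000 IU/ml. No medium was the same in null_EB or ESC as in the other groups, so medium, growth form and cell type cannot be told apart, and no ages are given. The labels do not state if replicates came from separate animals or cultures. The p-values then measure only the spread between these samples, which may be technical.

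FGF ligands are signalling proteins that bind receptor tyrosine kinases together with heparan sulfate, and the receptors then signal through the adaptor FRS2 and the RAS-ERK pathway. FGF7 and FGF10 are made mainly by mesenchymal cells and act on epithelia through the IIIb splice form of FGFR2, which in the developing lung drives branching. FGF2 and FGF1 act on fibroblasts and endothelial cells, and FGF4, a target of OCT4 and SOX2, is the ligand through which mouse embryonic stem cells stimulate their own ERK pathway before they differentiate. Alternative splicing of Fgfr1, Fgfr2 and Fgfr3 sets which ligands the receptors bind, and a single value for a gene does not separate these forms.

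Fgf7, Fgf2 and Fgf4 were the members whose group means lay furthest apart, and the 250 bases before their annotated start sites are shown so that the starts of these differently expressed genes can be compared. The sequences are RefSeq entries of build GRCm38.p6, all on the plus strand and written 5′ to 3′, at chr2:126034408-126034657 for Fgf7, chr3:37348403-37348652 for Fgf2 and chr7:144861136-144861385 for Fgf4. Capitals mark GGGCGG, the core of an Sp1 site, on either strand.
Fgf7: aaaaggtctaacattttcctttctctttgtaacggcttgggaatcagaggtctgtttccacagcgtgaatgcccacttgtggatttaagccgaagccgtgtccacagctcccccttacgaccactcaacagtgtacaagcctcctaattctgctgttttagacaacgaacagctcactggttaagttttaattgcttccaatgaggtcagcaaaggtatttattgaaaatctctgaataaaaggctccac
Fgf2: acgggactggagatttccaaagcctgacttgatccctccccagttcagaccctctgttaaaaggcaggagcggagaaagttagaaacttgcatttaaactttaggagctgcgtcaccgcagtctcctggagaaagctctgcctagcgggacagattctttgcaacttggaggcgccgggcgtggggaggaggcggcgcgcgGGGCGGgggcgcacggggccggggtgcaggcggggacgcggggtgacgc
Fgf4: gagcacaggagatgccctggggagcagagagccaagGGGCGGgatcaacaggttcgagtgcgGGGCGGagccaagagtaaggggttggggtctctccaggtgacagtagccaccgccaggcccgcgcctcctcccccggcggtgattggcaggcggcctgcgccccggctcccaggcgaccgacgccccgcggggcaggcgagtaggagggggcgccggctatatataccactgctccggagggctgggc
The stretch of Fgf7 was 43.6% G and C and held no GGGCGG, that of Fgf2 was 62.4% G and C with 1 match, and that of Fgf4 was 71.2% G and C with 2. Among 32851 promoters of the same length 32.7% held at least 1 match. Fgf1 and Fgfr1 were not searched. Of the 8 members searched, Fgf2, Fgf4, Fgf5, Fgf10, Fgfr3 and Fgfr4 held a match and Fgf7 and Fgfr2 did not. The E-box CACGTG bound by Myc and Max (in 6.02% of all promoters), the octamer ATGCAAAT (1.60%), TATAAA (12.4%) and the AP-1 site TGACTCA (4.46%), searched on both strands, were found in no entry of these 8 genes. A match or its absence describes only these letters in this window.

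The deposited values are log2 signals, in which a difference of 1 is a 2-fold change. Array medians lay between 7.66 and 7.75. Pairs of arrays correlated across probe sets at 0.994 or more within null_EC, null_EB and ESC but only at 0.954 to 0.968 within WT_EC, and genes had a median SD of 0.213 there against 0.0652 to 0.0847 in the other groups. Members had SDs of 0.113 to 1.27 in WT_EC and of at most 0.239 elsewhere. Because the fit over all 12 arrays pools this spread, it gives p-values that tend to be too small against WT_EC and too large between the other groups, and a fit to only the 6 arrays of a comparison is given for the members where it changes a call. Signals with a group mean under 8.01, the median of all tested values, are called low. Among 10 endothelial markers 3 exceeded 8.01 on average in WT_EC, 1 in null_EC and 0 in null_EB. The junction gene Cdh5 was at 9.10, 6.85 and 9.52 on WT_EC arrays 1, 2 and 3 and at 7.09 to 7.27 in null_EC, and Pecam1 was at 6.46 to 7.56 in both. Kdr, the main receptor for vascular endothelial growth factor, went the other way. It was 3.67-fold higher in null_EC (10.70) than in WT_EC (8.82; adjusted p = 0.000108), the only call among the 10, and 10.3-fold lower in null_EB than in null_EC (adjusted p = 8.04e-06). In addition 7 of 8 mesothelium markers exceeded 8.01 in WT_EC and 8 of 8 in null_EC, as did 9 and 6 of 10 fibroblast markers. The labelled endothelial identity was thus not borne out by most of these markers, Kdr being an exception, and the groups are called here by their labels. In all 8 embryonic stem cell markers the ESC mean exceeded 8.01, and in the other 3 groups 0 did.

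Fgf7, the keratinocyte growth factor, was high in wild-type lung cells and at low signal in both CD47 null groups. Its signals were 11.22, 10.45 and 10.73 on the WT_EC arrays, 6.61, 7.09 and 6.80 in null_EC, 6.89, 6.93 and 7.21 in null_EB, and 9.0, 9.17 and 9.23 in ESC. Every WT_EC array lay above every ESC array, and every ESC array above all 6 arrays of the null groups, which overlapped each other. The fall in null_EC was 15.6-fold (log2 difference -3.97, SE 0.186, limma adjusted p = 1.98e-06), and null_EB remained 13.8-fold below WT_EC (adjusted p = 1.44e-06). Forming embryoid bodies went with no called difference (log2 0.18, 95% interval -0.23 to 0.59, adjusted p = 0.754). ESC stood 4.92-fold above null_EC (adjusted p = 1.68e-06) and 3.17-fold below WT_EC (adjusted p = 2.41e-05). The call between null_EC and WT_EC also held with those 6 arrays alone (adjusted p = 0.00382) and on leaving out any of the 6 (log2 -4.14 to -3.76).

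Fgf10, also a ligand of the IIIb form of FGFR2, was at low signal in the null groups as well, but its WT_EC arrays did not agree. It was at 7.47, 7.02 and 9.04 on the WT_EC arrays, 6.89, 6.88 and 6.72 in null_EC, 6.62, 6.79 and 6.88 in null_EB, and 8.67, 8.64 and 8.91 in ESC. WT_EC array 3 was the only one of that group above 8.01 and exceeded every ESC array, so the groups overlapped. Genes of other cell types were high on it too: Lyz2 and Adgre1 of macrophages were at 12.31 and 10.07, against 9.05 and 6.90 on array 1 and 5.44 and 5.53 on array 2. Ptprc (9.01), Itgam (9.62) and the keratin gene Krt8 (11.68) were also highest there. Of the other lung epithelium markers Krt18, Sftpc and Esrp2 were highest there too, whereas Epcam, Cdh1, Nkx2-1, Cldn4, Esrp1 and Grhl2 were not. The endothelial markers Cdh5 (9.52), Emcn (7.85) and Pecam1 (7.56) were likewise highest on array 3, and Esam (9.53) was not. The fibroblast marker Tcf21 was at 7.27, 6.35 and 8.54 on WT_EC arrays 1, 2 and 3. The median of the 10 fibroblast markers was 10.56, 11.61 and 11.89 on these arrays, while Lum (10.58) and Dcn (13.65) were highest on array 2. The part of these cell types in the Fgf10 signal was not tested. The 2.02-fold difference between null_EC and WT_EC was not called (log2 -1.01, SE 0.385, adjusted p = 0.118). It was -0.41 without WT_EC array 3 and -1.42, with adjusted p = 0.0103, without WT_EC array 2. Against null_EC, ESC was 3.76-fold higher (adjusted p = 0.00170), and against null_EB 3.94-fold higher (adjusted p = 0.00144).

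Fibroblast markers fell in part beside Fgf7 in null_EC. Of the 10 markers 3 were called lower in null_EC than in WT_EC and 0 higher, beside 5.00% and 8.12% of all genes. Dpt fell 7.38-fold (adjusted p = 0.000724), Lum 5.44-fold (adjusted p = 0.0355, groups overlapping) and Pdgfrb 2.21-fold (adjusted p = 0.0117). Dcn and Col1a2 differed by -0.01 and 0.04 on the log2 scale and were not called. The median of the list was 10.56 to 11.89 on the WT_EC arrays and 10.24 to 10.89 in null_EC. It was 9.90 to 10.14 in null_EB and 9.32 to 9.42 in ESC. By its group means Tcf21 was at low signal throughout, though at 8.54 on WT_EC array 3. The list median was lowest in ESC, but 7 of the 10 markers exceeded 8.01 there on average, against 6 in null_EC and 6 in null_EB. Fgf10 had its highest mean in ESC, and Fgf7 lay above both null groups there. The median difference of the list from null_EC to null_EB was -0.51, beside 0.18 for Fgf7 and -0.07 for Fgf10. In bulk RNA fewer cells of a type and less RNA per cell cannot be told apart. The part of these cells in the Fgf7 and Fgf10 values, in ESC as in WT_EC, was not tested. Among the fibroblast markers in ESC, the collagen genes Col1a1 (10.56 to 11.05) and Col1a2 (10.68 to 11.06) were well above 8.01. Dcn, Pdgfra, Pdgfrb, Thy1 and Col3a1 also exceeded it in ESC (means 10.93, 10.85, 9.57, 9.19 and 9.08). Dpt, Lum and Tcf21 were at low signal there (means 5.96, 7.10 and 6.39).

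**Figure D1:**
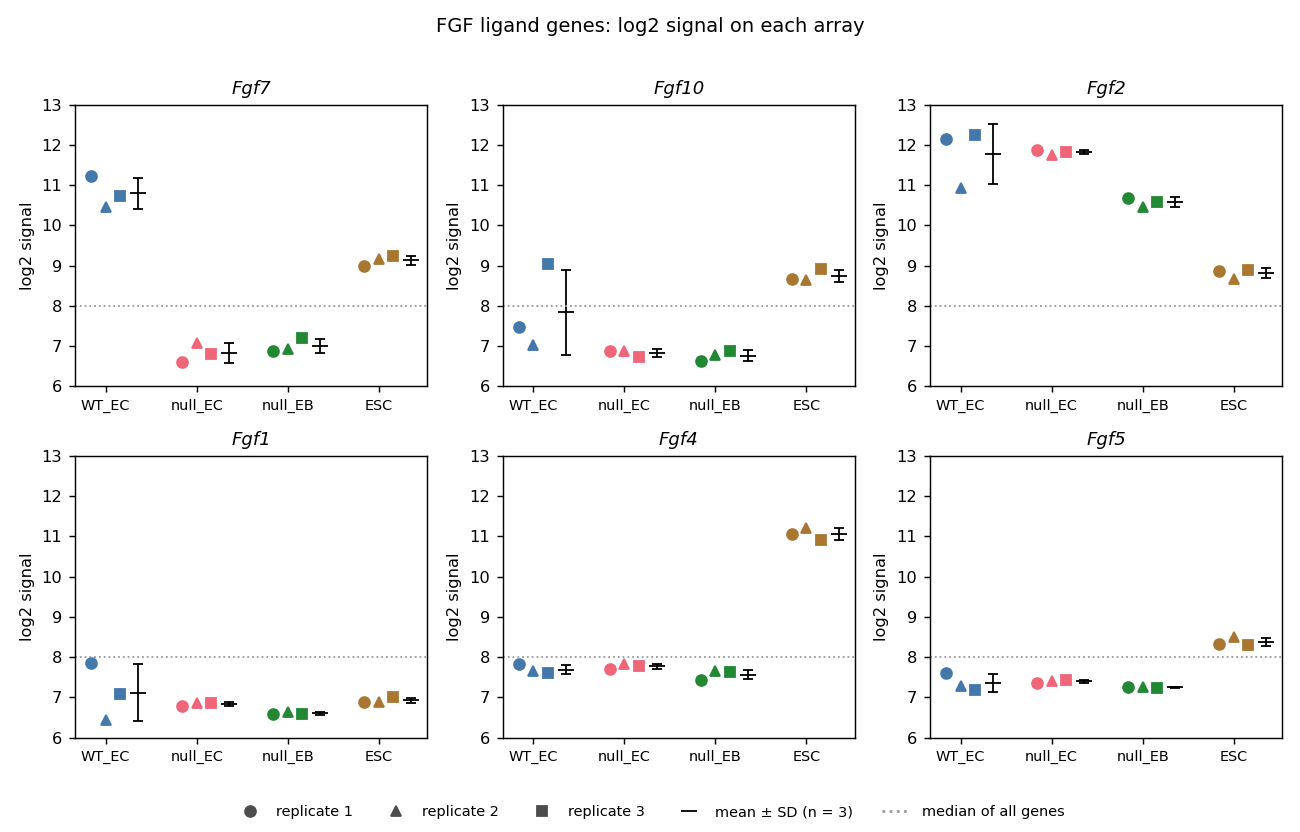
Log2 signal of the 6 ligand genes (y axis) on each of 12 arrays by group (x axis), symbols marking replicates, with the mean ± SD of 3 arrays at the right and a dotted line at the median of all genes, 8.01. Fgf7 is above 10 only in WT_EC, Fgf4 only in ESC, and Fgf2 steps down from null_EC (11.82) to null_EB (10.58) and ESC (8.82).

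Fgf2, a heparin-binding ligand that endothelial cells and fibroblasts make, was highest in both monolayer groups, lower in embryoid bodies and lowest in ESC. Its signals were 12.14, 10.92 and 12.25 on the WT_EC arrays, 11.87, 11.76 and 11.83 in null_EC, 10.69, 10.45 and 10.59 in null_EB, and 8.88, 8.68 and 8.89 in ESC. All arrays of null_EB lay below all of WT_EC and null_EC, and all arrays of ESC lay below those of null_EB. The step from null_EC to null_EB was 2.36-fold (log2 -1.24, SE 0.273, adjusted p = 0.0264; 1.3e-06 with those 6 arrays alone). On leaving out any 1 of the 6 arrays the difference stayed at -1.3 to -1.18 but the pooled fit no longer called it (adjusted p 0.0638 to 0.115). ESC fell a further 3.38-fold below null_EB (adjusted p = 0.000294) and was 7.74-fold below WT_EC (adjusted p = 5.72e-06). Mesothelium markers moved with the step from null_EC to null_EB, 5 of 8 lower and 0 higher, beside 2.50% and 2.90% of all genes. Their median was 10.47 to 10.78 in null_EB. Against WT_EC they did not move with Fgf2: 0 of 8 were called in null_EB (median difference -0.07), and 5 were higher in null_EC. Their part in the Fgf2 values was not tested. Between null_EC and WT_EC no difference was called (log2 0.05, 95% interval -0.56 to 0.65, adjusted p = 0.944), and this rested on WT_EC array 2, without which null_EC was lower (log2 -0.38, adjusted p = 0.0140).

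Fgf1, which binds all FGF receptors, stayed at low signal with a mean of 7.12 in WT_EC, 6.84 in null_EC, 6.61 in null_EB and 6.93 for the ESC arrays. None of the 6 comparisons was called (lowest adjusted p = 0.211). The WT_EC arrays spanned 6.43 to 7.85, a wider range than all other arrays together (6.58 to 7.0). With their 6 arrays alone, null_EB was called 1.18-fold lower than null_EC (adjusted p = 0.0096), a difference between low signals, and ESC 1.25-fold higher than null_EB (adjusted p = 0.00144).

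Fgf4 set ESC apart. Its signals were 11.07, 11.20 and 10.91 in ESC, against 7.6 to 7.82 in WT_EC, 7.71 to 7.82 in null_EC and 7.43 to 7.66 in null_EB. ESC was 10.3-fold above WT_EC, 9.79-fold above null_EC and 11.2-fold above null_EB (adjusted p = 8.51e-10, 8.13e-10 and 6.23e-10). Between null_EB and null_EC no difference in Fgf4 was called (log2 -0.20, 95% interval -0.41 to 0.02, adjusted p = 0.344). Pou5f1 and Sox2, whose products activate Fgf4, had ESC means of 11.97 and 11.02 against 6.25 and 6.35 in null_EC.

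Fgf5, which rises when embryonic stem cells move toward the primed epiblast state, was also highest in ESC but by a smaller step. It was at 8.34, 8.49 and 8.31 in ESC and at 7.18 to 7.6 on the 9 arrays of the other groups. ESC was 2.03-fold above WT_EC (adjusted p = 8.41e-06), 1.97-fold above null_EC (adjusted p = 1.04e-05) and 2.18-fold above null_EB (adjusted p = 3.81e-06). No difference among the other 3 groups was called (adjusted p of at least 0.532). Of 6 primed epiblast markers 3 were higher in ESC than in null_EC and 0 lower, beside 22.9% and 25.1% of all genes. Among the 3 were Otx2 (48.1-fold, adjusted p = 3.55e-12) and Dnmt3b (8.75-fold, adjusted p = 2.17e-10). Fst and Cer1 had lower means in ESC (8.92 and 6.34) than in null_EC, and Pou3f1 a slightly higher one (8.24 against 8.04). All 8 embryonic stem cell markers, among them Nanog (12.58) and Esrrb (10.33), also exceeded 8.01 in ESC on average. Whether ESC had moved toward the primed state was not tested.

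Fgfr1, the main FGF receptor of mesenchymal cells and of embryonic stem cells, had the steadiest high signal among the receptors. It was at 11.76, 10.52 and 11.58 on the WT_EC arrays, 10.89, 10.71 and 10.84 in null_EC, 11.47, 11.46 and 11.47 in null_EB, and 11.05, 10.94 and 11.08 in ESC. Every null_EB array was above every null_EC array, and the difference was 1.58-fold (log2 0.66, SE 0.246). The pooled fit did not call it (adjusted p = 0.178), whereas the fit to those 6 arrays did (adjusted p = 3.29e-05), as did weights for the spread of each group (adjusted p = 6.82e-05). WT_EC array 2 was the lowest of all 12 arrays, and without it Fgfr1 was called lower in null_EC against WT_EC (log2 -0.86, adjusted p = 4.72e-05), against -0.48 (adjusted p = 0.254) with it. With only their 6 arrays, ESC was called higher than null_EC (log2 0.21, adjusted p = 0.0191) and lower than null_EB (log2 -0.44, adjusted p = 0.000127).

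Fgfr2, the receptor for FGF7 and FGF10 in its IIIb form, had its highest mean in null_EC. Of 8 mesothelium markers 5 were also higher there than in WT_EC and 0 lower, beside 8.12% and 5.00% of all genes. Their median was 11.76 to 11.8 in null_EC and 10.56 to 11.34 in WT_EC, and their part in the result was not tested. The Fgfr2 signals were 7.79, 10.31 and 8.78 on the WT_EC arrays, 10.55, 10.63 and 10.47 in null_EC, 10.23, 9.95 and 9.93 in null_EB, and 9.49, 9.21 and 9.46 in ESC. The WT_EC arrays lay further apart than any pair of group means, and WT_EC array 2 came close to null_EC. Against WT_EC, null_EC was called 3.01-fold higher in Fgfr2 (log2 1.59, SE 0.459, adjusted p = 0.0442), but the call was lost with those 6 arrays alone (adjusted p = 0.252). It was also lost without WT_EC array 1 (log2 1.01), WT_EC array 3 (log2 1.5) or any null_EC array, and strengthened without WT_EC array 2 (log2 2.26, adjusted p = 6.64e-05). Groups did not overlap in the steps from null_EC to null_EB (1.43-fold) and from null_EB to ESC (1.57-fold). Neither step was called in the pooled fit (adjusted p = 0.696 and 0.277), and both were with only the 6 arrays concerned (adjusted p = 0.00141 and 0.000192). The same held for ESC against null_EC (log2 -1.16, adjusted p = 0.0571, and 3.27e-07 with those 6 arrays).

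WT_EC array 2 thus stood apart in several members at once, with the lowest Fgf1, Fgf2, Fgf7, Fgf10, Fgfr1 and Fgfr4 of its group and the highest Fgfr2. The median endothelial marker was at 6.71 on it, against 7.17 and 7.87 on arrays 1 and 3. The median immune marker was at 6.13, against 7.29 and 9.32. Fibroblast and mesothelium medians were not lowest on it, at 11.61 (10.56 and 11.89 on arrays 1 and 3) and 11.10 (10.56 and 11.34). The part of cell make-up in these values was not tested.

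The splicing factor genes Esrp1 and Esrp2, whose products favour the IIIb form of Fgfr2, did not move together. Esrp1 was at low signal on every WT_EC, null_EC and null_EB array (6.02 to 6.50) and 29.1-fold higher in ESC than in null_EC (adjusted p = 1.45e-10). Esrp2 was 2.04-fold higher in null_EC (8.93) than in WT_EC (7.90; adjusted p = 0.000436). The splice forms of Fgfr2 were not measured separately.

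Fgfr3 and Fgfr4, receptors better known from cartilage and liver, were near or under 8.01 in every group. Fgfr3 was at 7.93, 7.73 and 7.62 on the WT_EC arrays, 8.09, 8.06 and 8.03 in null_EC, 7.62, 7.67 and 7.61 in null_EB, and 7.87, 7.86 and 7.80 in ESC. Its null_EC arrays were above all 9 others. The differences were small: 1.23-fold above WT_EC (adjusted p = 0.0321), 1.34-fold above null_EB (adjusted p = 0.0127) and 1.16-fold above ESC (adjusted p = 0.0467). The call against WT_EC was lost with those 6 arrays alone (adjusted p = 0.222) and on leaving out WT_EC array 3 or any null_EC array. With housekeeping medians made equal, the calls against WT_EC and null_EB were lost (adjusted p = 0.11 and 0.0707). That against ESC was lost without any 1 of its 6 arrays, and that against null_EB without null_EB array 3 or any null_EC array. Fgfr4 had means of 7.55, 7.61, 7.62 and 7.86 in WT_EC, null_EC, null_EB and ESC, and only ESC against WT_EC was called, at 1.24-fold (adjusted p = 0.0281; 0.119 with those 6 arrays alone). With equal housekeeping medians it was not called (adjusted p = 0.309), nor without WT_EC array 2 or 3 or ESC array 1 or 3. With only the 6 arrays concerned, ESC was also called above null_EC in Fgfr4 (log2 0.25, adjusted p = 0.00786) and above null_EB in Fgfr3 and Fgfr4 (log2 0.21 and 0.23, adjusted p = 0.0137 and 0.0131), but both differences from null_EB turned negative with equal housekeeping medians.

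**Figure D2:**
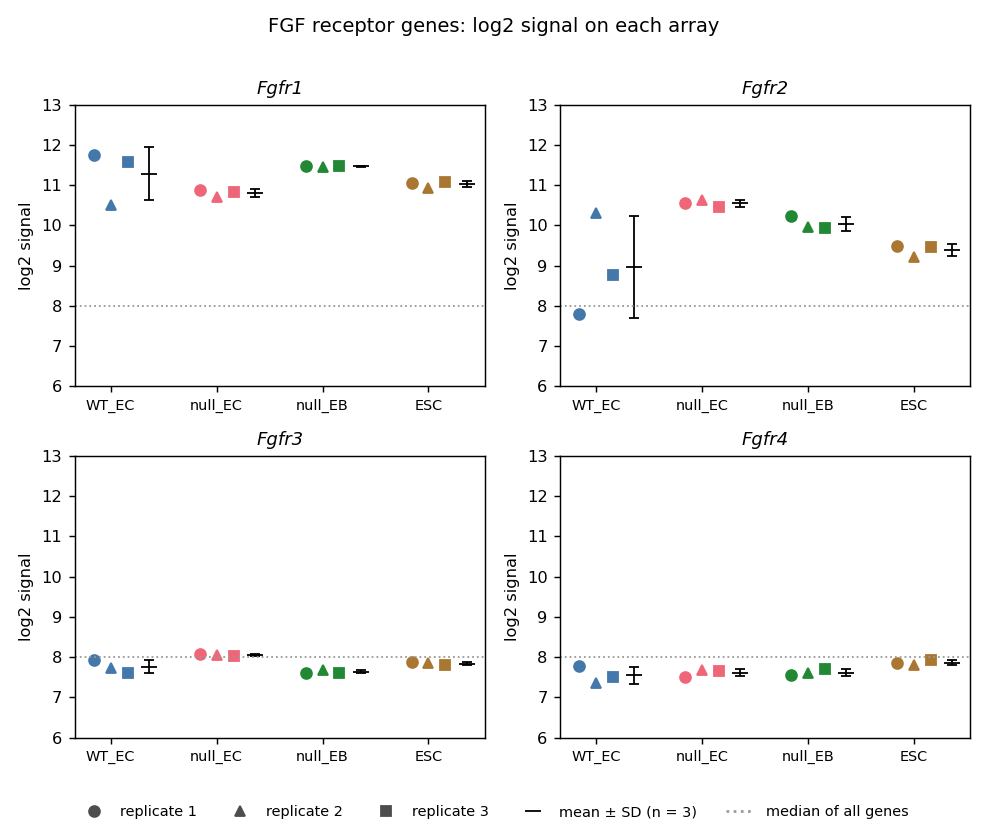
Log2 signal of the 4 receptor genes (y axis) on each of 12 arrays by group (x axis), symbols marking replicates, with the mean ± SD of 3 arrays at the right and a dotted line at 8.01. The WT_EC arrays of Fgfr2 spread from 7.79 to 10.31, whereas the 3 null_EC arrays lie between 10.47 and 10.63.

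In null_EC against WT_EC 3 of the 10 members were called, beside 13.1% of all genes: Fgfr2 and Fgfr3 were higher (8.12% of all genes) and Fgf7 lower (5.00%). Groups did not overlap in 4 members, beside 25.5% of all genes. With those 6 arrays alone only Fgf7 was called, as without WT_EC array 3 or any null_EC array, and without WT_EC array 2 the calls numbered 7. In null_EB against null_EC 2 members were called, beside 5.40% of all genes, Fgf2 and Fgfr3 being lower (2.50%) and 0 higher (2.90%). Groups did not overlap in 7 members, beside 41.1% of all genes. With those 6 arrays 5 were called: Fgfr1 higher, and Fgf1, Fgf2, Fgfr2 and Fgfr3 lower. Leaving out any of these arrays left 0 or 1 call in the pooled fit.

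In null_EB against WT_EC 2 members were called, beside 18.5% of all genes, Fgf2 and Fgf7 being lower (6.19%) and 0 higher (12.3%), and groups did not overlap in 3 (28.3%). Without WT_EC array 2 the calls numbered 5, and with those 6 arrays or without null_EB array 2 only Fgf7 was called (Fgf2 adjusted p = 0.128 and 0.0534). ESC differed from WT_EC in 5 members (47.1% of all genes), 3 higher (25.4%) and 2 lower (21.7%), and groups did not overlap in 5 (51.5%). Against null_EC 6 were called (47.9%), 4 higher (22.9%) and 2 lower (25.1%), and groups did not overlap in 10 (72.2%). Against null_EB 5 were called (44.8%), 4 higher (21.8%) and 1 lower (23.0%), and groups did not overlap in 10 (67.4%). The member counts against ESC were near these shares of all genes, and the comparisons share arrays with each other. The median member difference was 0.05 in null_EC against WT_EC (all genes 0.03), -0.17 in null_EB against null_EC (-0.01) and 0.23 in ESC against null_EC (-0.09).

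**Figure D3:**
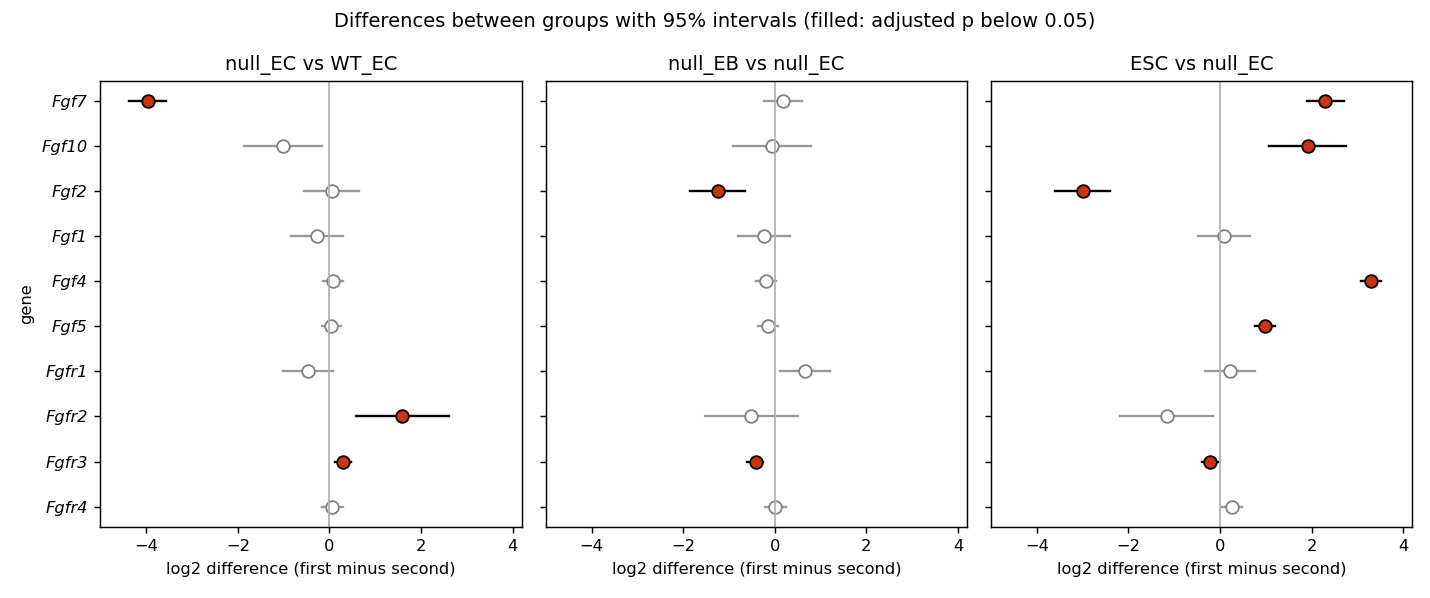
Log2 difference of each member (rows) in 3 comparisons, first group minus second on the x axis, with 95% intervals from the fit to 12 arrays; filled points have an adjusted p below 0.05. Fgf7 lies at -3.97 in null_EC against WT_EC and at 2.30 in ESC against null_EC, and Fgf4 stands out only against ESC.

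Of the other 16 genes of the FGF family none was called by limma in null_EC against WT_EC, beside 13.1% of all genes. At an unadjusted p below 0.05 there were 2, and the median was 0.03. In null_EB against null_EC 1 was called (5.40% of all genes), and in ESC against null_EC 6, 4 higher and 2 lower (47.9%). Fgf18, a ligand of bone and lung development, was at 8.59 to 9.91 in WT_EC, 9.81 to 10.01 in null_EC, 8.44 to 8.56 in null_EB and 7.94 to 8.05 in ESC. It was 2.65-fold lower in null_EB than in null_EC (adjusted p = 0.00783) and 3.77-fold lower in ESC (adjusted p = 6.00e-05). Fgf21, a metabolic hormone, was 1.54-fold lower in ESC than in null_EC (adjusted p = 0.000126). Fgf15, a target of bile acid receptors in the gut that is also made in early embryos, was 3.71-fold higher in ESC than in null_EC (adjusted p = 2.81e-08). Fgf17 and Fgf13 were 1.62-fold and 1.58-fold higher there (adjusted p = 0.000116 and 9.95e-05).

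Among 30 measured co-receptors and enzymes of heparan sulfate, the glycan that holds FGF on its receptor, null_EC and WT_EC differed in 6 by the test, 4 being higher in null_EC and 2 lower, beside 13.1% of all genes. In null_EB against null_EC 3 were called, all lower (5.40% of all genes), and in ESC against null_EC 21, of which 5 were higher and 16 lower (47.9%). The other 24, 27 and 9 genes did not pass. The list medians were 0.12, -0.16 and -0.48, beside 0.03, -0.01 and -0.09 for all genes. Sulf2, which encodes a sulfatase that trims 6-O-sulfate from heparan sulfate, was at 10.74 to 10.95 in WT_EC and at 10.87 to 10.89 in ESC, whereas null_EC arrays were at 8.44 to 9.16 and null_EB arrays at 8.32 to 8.54. Against WT_EC, null_EC was 4.29-fold lower (adjusted p = 1.79e-05; 0.00847 with those 6 arrays) and 4.35-fold higher in ESC than in null_EC (adjusted p = 6.12e-07). Sulf1, the related sulfatase, fell 2.57-fold in null_EB against null_EC (adjusted p = 0.0136).

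The 6-O-sulfotransferase Hs6st2, the adhesion receptor Ncam1 and the membrane protein Flrt1 had the largest increases of the list in null_EC against WT_EC. They were higher by 2.57-fold, 2.51-fold and 1.98-fold (adjusted p = 0.0157, 0.00258 and 0.000749). Of these only Flrt1 was called with the 6 arrays alone (adjusted p = 0.0421). Flrt2 fell 1.95-fold in null_EC (adjusted p = 0.00868; 0.122 with those 6 arrays). Hs6st2 lost its call without null_EC array 1 or 2. In null_EB against null_EC the glypican Gpc4 fell 2.12-fold and Flrt1 1.72-fold (adjusted p = 0.0149 and 0.00699). In the pooled fit Gpc4 and Sulf1 lost their calls on leaving out any of the 6 arrays but null_EB array 1 (highest adjusted p = 0.0785 and 0.0715). With those 6 arrays alone both were called (adjusted p = 4.15e-05 and 6.53e-06). In ESC, N-cadherin (Cdh2), which can bind FGFR1, was 8.98-fold lower than in null_EC (adjusted p = 1.21e-07). The glypican Gpc3 was 8.56-fold higher (adjusted p = 0.0325), a call the pooled fit lost without any 1 of the 6 arrays (adjusted p 0.0708 to 0.0795). That fit includes the WT_EC arrays, on which Gpc3 was at 11.41, 6.87 and 12.52. With the 6 arrays of the comparison alone Gpc3 was called (adjusted p = 6.41e-11).

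Among 20 measured signal relays, from adaptors to kinases, 5 were higher and 0 lower in null_EC against WT_EC, beside 8.12% and 5.00% of all genes, with Sos1 (1.66-fold), Braf (1.6-fold) and Sos2 (1.3-fold) furthest (adjusted p = 0.0425, 0.0133 and 0.0159). None of the 5 was called with the 6 arrays alone, where 588 of all genes were, and each of these 3 lost its call without null_EC array 1. Sos1 stood at a log2 difference of 0.73, and at 0.42 without WT_EC array 1. Nras was 1.28-fold higher and Stat3 1.2-fold lower in null_EB than in null_EC (adjusted p = 0.0112 and 0.0456; 5.40% of all genes called). Stat3 lost its call without any 1 of the 6 arrays (adjusted p 0.0623 to 0.187) and, at a log2 difference of -0.11, with equal housekeeping medians (adjusted p = 0.36). Nras lost it without null_EC array 2 or 3 or null_EB array 2. With the 6 arrays alone both Nras and Stat3 were called (adjusted p = 0.000814 and 0.0082). In ESC against null_EC 4 relays were higher (22.9% of all genes), led by Gab1 (2.17-fold, adjusted p = 0.0165), and 9 lower (25.1%). The lower ones were led by the phosphatidylinositol 3-kinase subunit Pik3r1 (3.07-fold, adjusted p = 0.00114). Gab1 was not called in the pooled fit without ESC array 3, and was called with those 6 arrays alone (adjusted p = 9.03e-08).

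Genes listed as feedback inhibitors and targets of FGF signalling were lower in null_EC than in WT_EC in 10 of 20 cases and higher in 0. Of all genes 5.00% were called lower and 8.12% higher. Il17rd, a feedback inhibitor, went the other way without a call (log2 0.59, adjusted p = 0.159), and ERK activity was not measured. The list median was -0.43 against 0.03 for all genes. Ccnd1, the cyclin of G1 phase, fell 3.00-fold (adjusted p = 0.00170), the transcription factor gene Etv1 2.65-fold (adjusted p = 0.0111) and Egr1, an immediate early gene, 2.26-fold (adjusted p = 0.0380). The log2 difference of Egr1 was -1.17, and -0.72 without WT_EC array 3. Phlda1 was 2.21-fold lower (adjusted p = 0.000680). The phosphatase genes Dusp5 and Dusp6, whose products inactivate ERK, were 1.87-fold and 1.53-fold lower (adjusted p = 0.0241 and 0.0113). Smaller decreases were those of Spry3, Spred1, Spry2 and Etv5 (1.51-fold, 1.34-fold, 1.33-fold and 1.23-fold). On leaving out any of the 6 arrays Ccnd1, Etv1, Phlda1 and Dusp6 kept their calls, and each of the other 6 lost its call without at least 1 null_EC array. With the 6 arrays alone 2 of the 10 were called, Phlda1 and Ccnd1, and without null_EC array 2 or 3 the count was 4. Many of these genes also respond to serum and to other receptors, and their relation to FGF ligands was not tested.

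Dusp6, often read as a gauge of FGF and ERK signalling, was at 10.63, 10.65 and 11.06 on the WT_EC arrays, 10.28, 9.91 and 10.30 in null_EC, 11.26, 11.09 and 11.21 in null_EB, and 9.87, 9.96 and 9.92 in ESC. No null_EC array reached any WT_EC or null_EB array. It rose 2.04-fold in null_EB against null_EC (adjusted p = 0.00159), on leaving out any of those arrays too (adjusted p 0.00637 to 0.0122). Ccnd1 rose 1.94-fold in null_EB against null_EC (adjusted p = 0.0479). The pooled fit no longer called it when any of the 6 arrays was left out (adjusted p 0.100 to 0.161). With those 6 arrays alone Ccnd1 was called (adjusted p = 0.000346). Spsb1, a ubiquitin ligase adaptor gene, fell 2.24-fold (adjusted p = 0.000482). In all 2 of the 20 genes rose and 1 fell in this comparison, beside 2.90% and 2.50% of all genes. With its 6 arrays alone 9 rose and 1 fell, beside 3000 and 2464 of the 19938 genes.

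In ESC 7 of the 20 were higher than in null_EC and 8 lower, beside 22.9% and 25.1% of all genes, with the ETS factors Etv1 (7.08-fold, adjusted p = 1.52e-05) and Etv5 (6.76-fold, adjusted p = 7.16e-10) highest above null_EC, followed by Ccnd1 (3.61-fold, adjusted p = 7.65e-05). Etv5 was at 11.76 to 11.90 in ESC and at 8.94 to 9.41 on all 9 other arrays. Dusp4, which encodes another ERK phosphatase, Spsb1 and Ier3 were lowest against null_EC, by 3.23-fold, 2.65-fold and 2.06-fold (adjusted p = 0.000520, 3.02e-06 and 0.0194). Ier3 lost its call in the pooled fit without null_EC array 1 or 3 or ESC array 1 or 3. With only the 6 arrays of the comparison it was called (adjusted p = 2.76e-07).

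**Figure D4:**
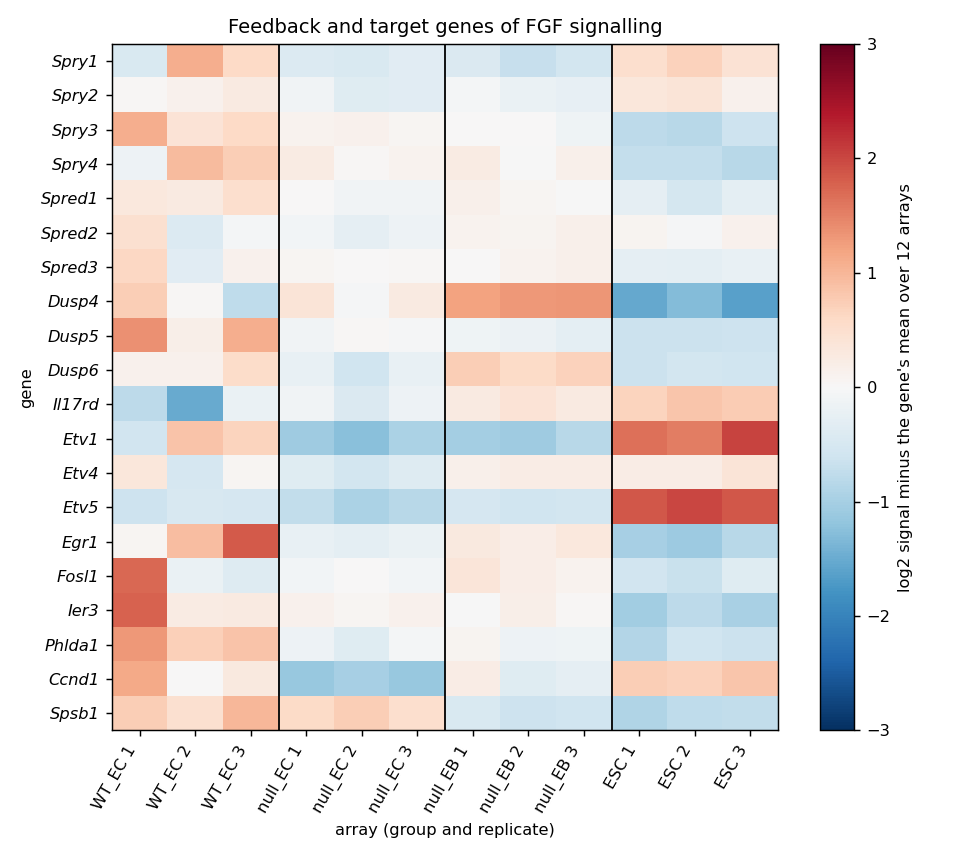
Log2 signal of 20 feedback and target genes (rows) on 12 arrays (columns), shown as the difference from the mean of the gene over the arrays. The null_EC columns are below the WT_EC columns for Ccnd1, Phlda1 and Dusp6, Dusp6 is high again in null_EB, and Etv5 is high in ESC (11.81 on average against 9.05 in null_EC).

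For the members whose group means spanned at least 2, the genes nearest in pattern were found by the root mean square difference of log2 signals over the 12 arrays, after the mean of each gene was subtracted, among 17065 genes. Nearest to Fgf7 were the acute phase gene Serpina3n (0.281; mean 13.49 for WT_EC, 9.10 for null_EC, 9.37 for null_EB and 11.36 for ESC), the imprinted gene Ndn (0.569) and the transcription factor gene Ebf1 (0.574). Nearest to Fgf2 were the small heat shock gene Cryab (0.299), Bmp6 (0.357), a bone morphogenetic protein, and Creb3l2 (0.359), a transcription factor of the secretory pathway. For Fgf4 these were Gdf3 (0.0793), a TGF-beta family gene of pluripotent cells, Ano9 (0.0972) and Crabp1 (0.126), a retinoic acid binding protein, each high in ESC alone. These distances are descriptions over arrays of 4 groups and say nothing of shared control.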

How the data were processed

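The 12 columns the authors deposited hold log2 signals. Expression Console (Affymetrix, 1.2.1) and RMA are named in the submitters' processing notes; RMA removes background, equalises array quantiles and fits 1 value to the probes of a set. RNA (300 ng) was labelled per array; a human array type is given in the protocol, but identifiers were those of the mouse platform table, and the build is not given in the sources used here. Of 35556 probe sets, 21789 had 1 gene symbol, 1621 several and 12146 no entry; those with several or none were left out, so some genes of the pathway lists are not analysed here. The brightest probe set stood for each of 999 genes that had more than 1, leaving 19938 genes. Group means over all 12 arrays were modelled in limma 3.58.1 (R 4.3.3). Benjamini-Hochberg adjustment ran across the whole table, separately for 6 comparisons, with calls at an adjusted p below 0.05; errors are standard errors, group values mean ± SD of 3 arrays. Arrays have no read depth, and their number limits the precision.

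Members and gene lists were chosen with earlier results of these data known. Named were all members, up to 3 called genes per direction of each pathway list in 3 comparisons, called feedback genes, and 3 genes nearest in pattern to each member spanning at least 2; Esrp1, Esrp2 and cell markers come from marker lists. The code was tested on simulated data. Alternatives were the 6 arrays alone, array weights by group, the replicate number as a block, a floor of log2 6 reached on 3 arrays or more, all probe sets kept, probe set means, equal medians of 18 housekeeping genes, and leaving out each array. Same-numbered arrays did not deviate together (correlations -0.256 to 0.225), so numbers were not taken as pairs.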

Additional observations from a re-analysis of the deposited data

How the results depend on the processing

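Fgf7 and Fgf4 kept direction and call in every setting run, in each comparison where they were called, as did Fgf5 and Fgf10 in ESC; Fgf2, Fgfr2, Fgfr3 and Fgfr4 did not. With only the 6 arrays compared, calls in null_EC against WT_EC went from 3 to 1 for members. For co-receptors and heparan sulfate they went from 6 to 2, for relays from 5 to 0 and for feedback genes from 10 to 2. In null_EB against null_EC the same lists went from 2 to 5, 3 to 15, 2 to 10 and 3 to 10. Calls among the other FGF genes went there from 1 to 3. Members called went from 2 to 1 in null_EB against WT_EC and from 5 to 10 in ESC against null_EB. The latter had 12306 of all 19938 genes called with its 6 arrays and 12385 with array weights by group, beside 8929 in the pooled fit. The former had 870 genes called with its 6 arrays, beside 3697 in the pooled fit. Array weights by group gave 1 relay and 6 feedback genes in null_EC against WT_EC, and 10 members in ESC against null_EB. In null_EB against null_EC they gave 5 members, 3 other FGF genes, 15 co-receptors, 10 relays and 9 feedback genes. Whole-table calls with the 6 arrays were 588 in null_EC against WT_EC (2615 in the pooled fit) and 5464 in null_EB against null_EC (1077).

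With the replicate block, relays called numbered 2 for null_EC against WT_EC and 1 for null_EB against null_EC, Fgfr2 lost its call in the former (adjusted p = 0.0622), and no other member's call changed; 4 of 12 arrays deviated most like an array of their own number. Testing every probe set gave 2 and 1 relays in these comparisons. Equal housekeeping medians moved the median of all genes by -0.06 (null_EC against WT_EC), 0.15 (null_EB against null_EC), 0.09 (null_EB against WT_EC), and -0.16, -0.11 and -0.25 in ESC against WT_EC, null_EC and null_EB. Calls then split 1719 higher to 320 lower in null_EB against null_EC (578 to 499 before), 1098 to 1074 in null_EC against WT_EC (1619 to 996), and 3575 to 930, 4007 to 7961, 3864 to 6694 and 3054 to 10612 in the others. With it 1 relay was called in null_EC against WT_EC, and 1 member (Fgf2), 2 other ligands, 5 co-receptors and 6 feedback genes in null_EB against null_EC. Signs turned for some differences that the pooled fit did not call: Fgf2 (-0.01) and Fgf5 (-0.01) in null_EC against WT_EC, Fgf10 (0.08) in null_EB against null_EC, Fgfr3 (-0.08) in ESC against WT_EC, Fgf1 (-0.02) in ESC against null_EC, and Fgfr3 (-0.04, from 0.21) and Fgfr4 (-0.02, from 0.23) in ESC against null_EB, which had been called with those 6 arrays alone (adjusted p = 0.0137 and 0.0131).

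Leaving out each array gave, in null_EC against WT_EC, 1 to 7 members, 0 to 3 other FGF genes and 5 to 11 co-receptors. Relays then numbered 0 to 6 and feedback genes 4 to 12. In null_EB against null_EC it gave 0 to 1 members, 1 to 3 co-receptors and 0 to 1 relays. In null_EB against WT_EC it gave 1 to 5 members. Some differences changed sign, and their ranges over the arrays left out follow. Against WT_EC, null_EC ranged from -0.62 (without WT_EC array 2) to 0.09 (without array 1) in Fgf1, from -0.38 (array 2) to 0.29 (array 3) in Fgf2, from -0.04 (array 3) to 0.16 (array 1) in Fgf5 and down to -0.03 (array 2) in Fgfr4. Null_EB ranged from -0.19 (array 3) to 0.01 (array 1) in Fgf5, from -0.20 (array 2) to 0.42 (array 1) in Fgfr1 and from -0.01 (array 2) to 0.19 (array 1) in Fgfr4. ESC ranged from -0.54 (array 2) to 0.17 (array 1) in Fgf1 and from -0.16 (array 1) to 1.1 (array 2) in Fgfr2. In null_EB against null_EC, Fgf10 ranged from -0.13 (without null_EB array 3) to 0.01 (null_EB array 1), and Fgfr4 from -0.04 (null_EC array 1) and -0.03 (null_EB array 3) to 0.04 (null_EC array 2). The causes of these changes were not tested beyond what leaving out an array shows.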
